A study of Mus musculus with 11 samples.

Results

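The lysosome genes of fetal lung epithelium, 45 of the 24421 gene symbols in the deposited table, were followed by name through the whole-table comparison of Prdm3 and Prdm16 double-knockout embryos with Control embryos. They comprise 3 transcription factors, 10 membrane proteins, 10 proteases, 12 glycosidases, lipid hydrolases and their protein cofactors, and 10 subunits of the proton pump. A symbol from the list was found for each of the 45. The PRDM3/16KO group had 5 libraries and the Control group 6, all of EpCAM-bead-selected lung cells at E17.5, late in gestation. In the knockout, floxed Prdm3 (current symbol Mecom) and Prdm16 were recombined by the ShhCre allele, which is active in lung epithelium from early in its development. The breeding scheme mated Prdm3fl/fl Prdm16fl/wt ShhCre+ males to females floxed on both alleles of both genes, so each Prdm3 allele in the cross was floxed. The labels call the other group Control and the series text calls it wild type, and neither gives its Prdm16 alleles or whether it carried Cre. They do not say whether a library is 1 embryo or a pool, so a p-value here rests on how far libraries vary, which may be technical in part.

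The lysosome is the acidic compartment in which cells break down proteins, lipids and sugars. A proton pump in its membrane acidifies the interior, membrane proteins move cholesterol, ions and enzymes, and soluble hydrolases do the digestion. Alveolar type 2 cells keep surfactant in lamellar bodies, which are lysosome-related organelles carrying lysosomal membrane proteins and hydrolases. Transcription factors of the MiT/TFE family (TFEB, TFE3 and MITF) switch on many lysosome genes through a short DNA element named CLEAR.

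Most of the lysosome genes that differed were lower in the knockout, and the losses were uneven. Large losses were those of the pump subunit gene Atp6v1c2, the transcription factor gene Mitf and the membrane protein genes Dram1, Npc1 and Scarb2. The fold change of the pump subunit gene Atp6v1b1 was of similar size, but the gene had few counts and passed the filter through its Control libraries. A smaller set was higher, namely the hydrolase genes Ctsa, Ctsd and Pla2g15 and the cofactor gene Psap. Of the 45 genes, 41 passed the filter on low counts: 23 of them fell, 4 rose and 14 did not pass the test (edgeR quasi-likelihood test, adjusted p under 0.05). Across the 13916 genes tested, 42.9% were called, 21.8% lower and 21.1% higher. The ranges of the groups did not overlap for 18 lower and 3 higher genes of the 41, against 14.2% of all genes tested in either of these directions. The median log2 fold change was -0.29 over the 41 and 0.0023 over all genes tested. Without the filter, 23 of the 45 were lower and 4 higher, beside 3027 lower and 3421 higher of 19503 genes. A log2 fold change of -0.5 or less with a call was found for 14 of the genes, against 10.9% of all genes tested, and one of 0.5 or more for Ctsa alone, against 13.1%. In bulk RNA, fewer cells of a type and less RNA per cell cannot be told apart.

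**Figure D1:**
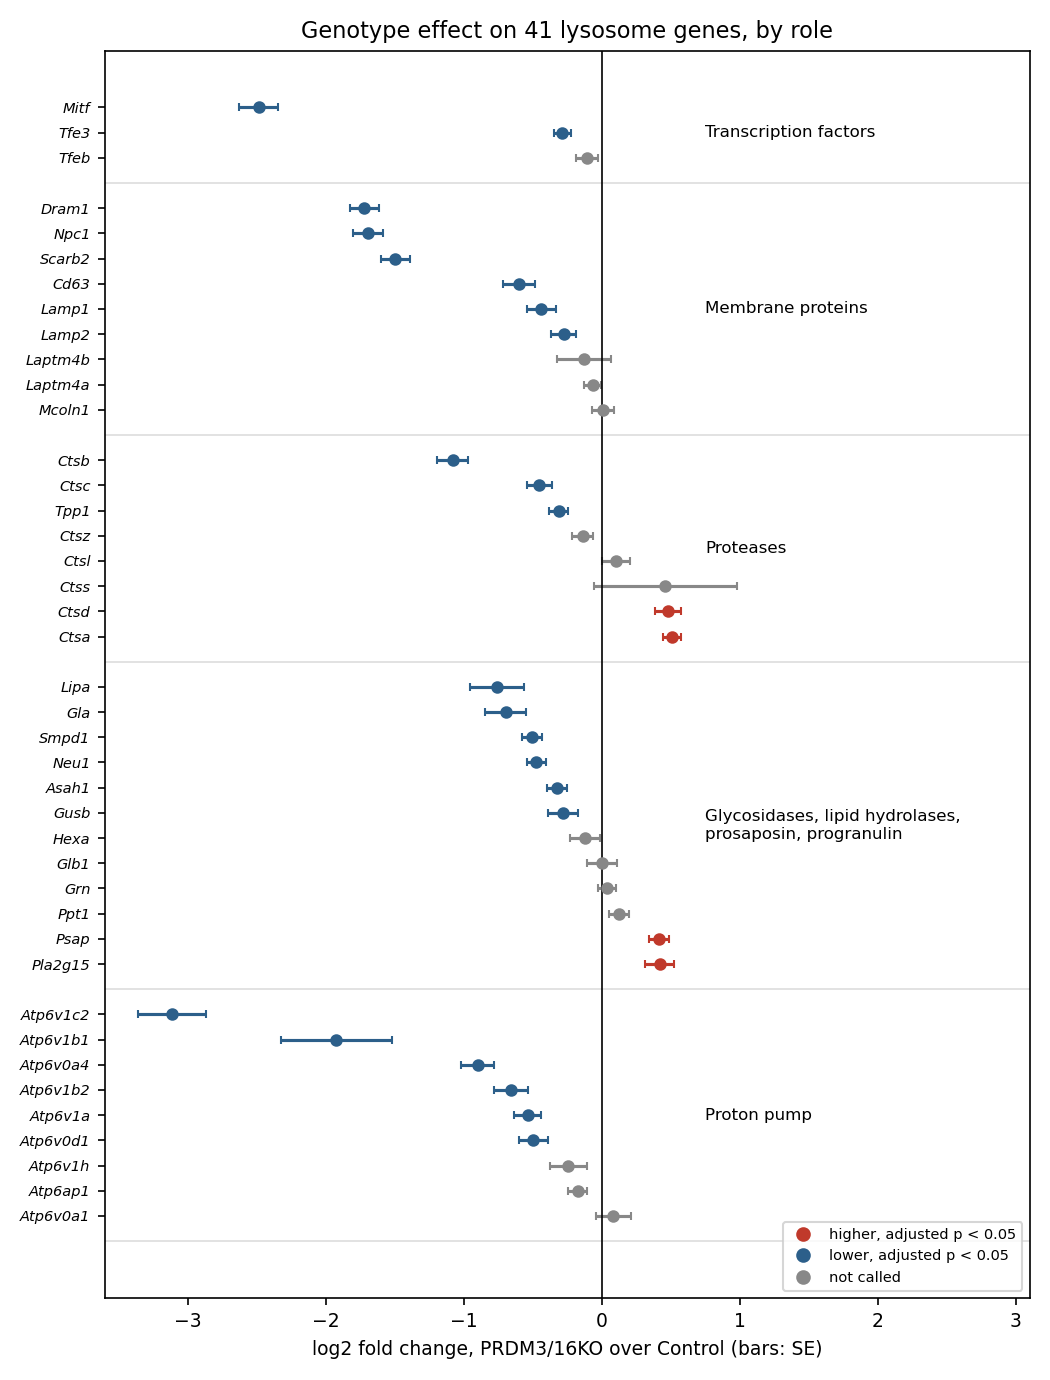
The log2 fold change of 41 lysosome genes (horizontal axis, PRDM3/16KO over Control; bars, SE), grouped by role and ordered by size within each role, with colour for the edgeR call. Points to the left of 0 are lower in the knockout; Atp6v1c2 lies farthest left at -3.12 and Ctsa farthest right at 0.51.

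Libraries held 6065906 to 7869787 counts. The targeted genes check the deletion only weakly, since counts cover whole genes and the deleted exons are not named. Prdm16 averaged 166 ± 12.2 CPM (counts scaled to a common library total) in PRDM3/16KO and 202 ± 21.9 CPM in Control libraries, and Mecom 340.3 ± 16.0 CPM in PRDM3/16KO and 219 ± 9.99 CPM in Control libraries (SD, n = 5 and 6). Epithelial markers were present in every library, with a summed level of the 6 markers of 5259 to 5727 CPM in PRDM3/16KO and 5192 to 5876 CPM in Control; of the 6, Cdh1 (-0.18) and Nkx2-1 (-0.28) were called lower and none higher. Other marker lists moved to different degrees, and the sums of macrophage, endothelial and mesenchymal markers overlapped between the groups. The 8 type 2 cell markers, all 8 lower, summed to 2380 to 3616 CPM in PRDM3/16KO and 6877 to 12227 CPM in Control. Neuroendocrine markers, 6 of 7 higher, summed to 532 to 661 CPM in PRDM3/16KO and 24.7 to 50.6 CPM in Control. Mesenchymal markers, 7 of 12 higher, summed to 653 to 1202 CPM in PRDM3/16KO and 421 to 667 CPM in Control, and mesothelial markers, 6 of 6 higher, to 449 to 566 CPM in PRDM3/16KO and 155 to 296 CPM in Control. Markers of macrophages, cells rich in lysosomes, were higher for 7 of 18 and lower for 1 (Cd14). They summed to 165 to 563 CPM in PRDM3/16KO and 171 to 361 CPM in Control. Marco was at 0 in each knockout library, but reached only 0.277 CPM at most in Control and was not tested. Endothelial markers, 5 of 9 higher and 1 lower, summed to 75.3 to 98.0 CPM in PRDM3/16KO and 67.8 to 109 CPM in Control. The part of these cell types in the results for lysosome genes was not tested.

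Summed over the 45 genes, the level was 4770 ± 198 CPM in PRDM3/16KO and 6961 ± 846 CPM in Control libraries (SD, n = 5 and 6). The knockout libraries 1 to 5 had 4620, 4868, 4960, 4902 and 4502 CPM, and the Control libraries 1 to 6 had 7272, 7107, 7245, 8123, 6337 and 5681 CPM, so the groups did not overlap. The Control libraries were the more variable. Control 4 had the highest Control level for 29 of the 45 genes and Control 6 the lowest for 30. The type 2 cell markers were also highest in Control 4 and lowest in Control 6, while the summed level of 8 proliferation genes was lowest in Control 4, at 146 CPM, and highest in Control 6, at 784 CPM. Proliferation genes summed to 261 to 381 CPM in the knockout, within the Control range. Without Control 5 and 6, 26 of the lysosome genes were called lower and 4 higher. Calls over all genes rose too, to 3345 lower and 3183 higher of 13987 tested, from 3037 and 2936 with all libraries.

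**Figure D2:**
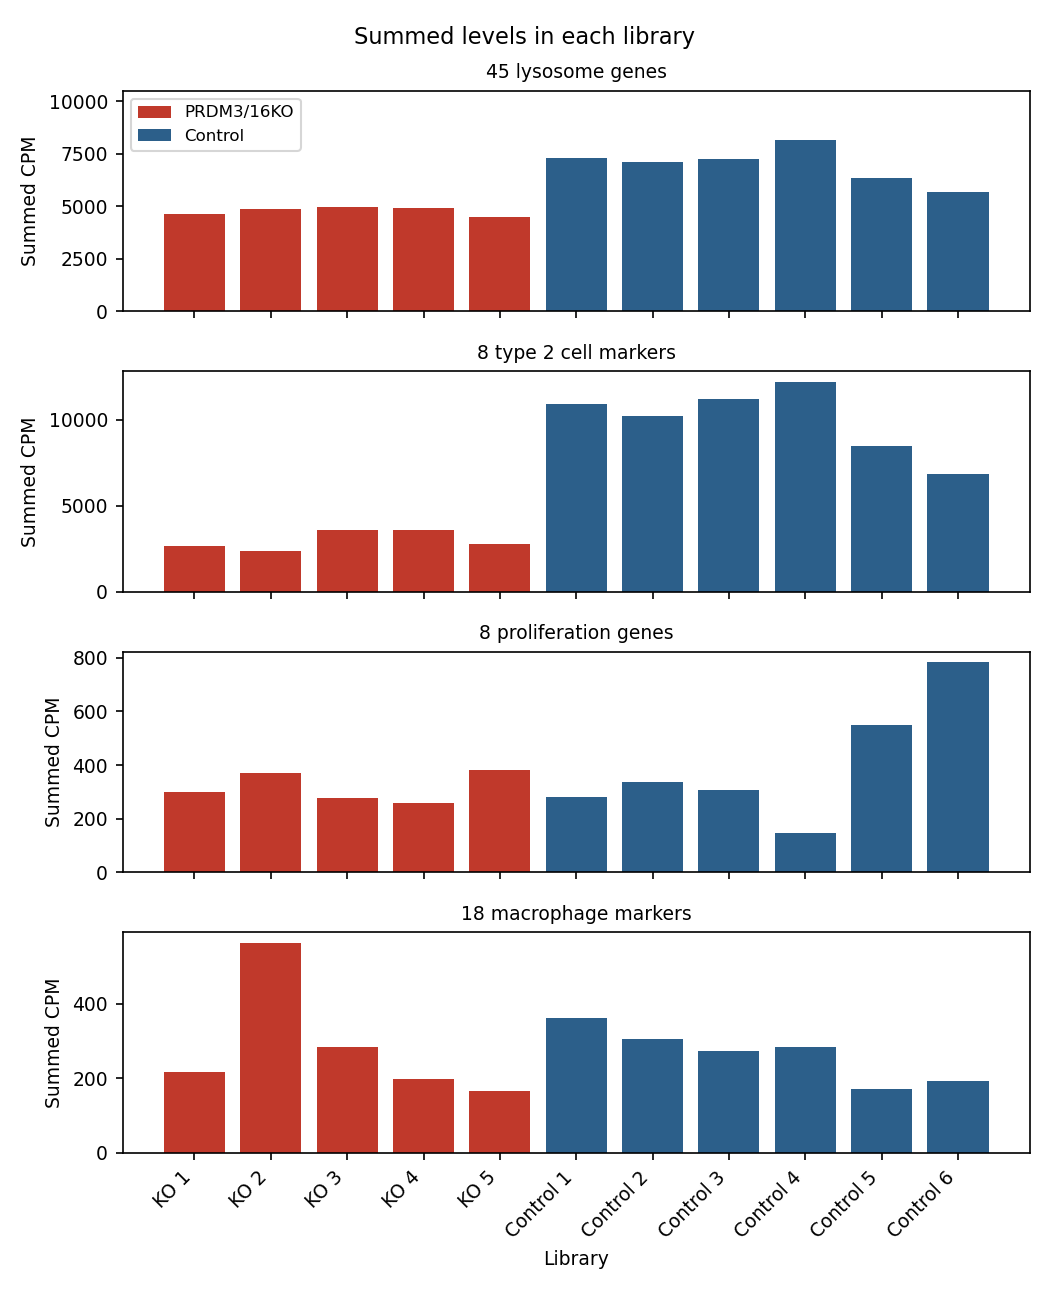
Summed CPM (vertical axes, starting at 0) in each library for the 45 lysosome genes, 8 type 2 cell markers, 8 proliferation genes and 18 macrophage markers, PRDM3/16KO libraries to the left of Control libraries. The knockout bars of the lysosome genes run from 4502 to 4960 CPM, all below the lowest Control bar at 5681 CPM; Control 6 has the lowest Control bars for lysosome and type 2 genes and the highest for proliferation.

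Among the MiT/TFE transcription factors, Mitf lost most of its RNA, Tfe3 a little, and Tfeb was not called. Mitf (chromosome 6, 97807052 to 98021349, mm10, plus strand) was at 9.42, 8.41, 8.96, 7.08 and 7.03 CPM in PRDM3/16KO libraries 1 to 5, and in Control libraries its lowest, median and highest values were 32.6, 49.1 and 52.7 CPM. No knockout library came near the Control range. The log2 fold change was -2.49 (SE 0.14, adjusted p = 2.34e-09 by edgeR), a level 5.60-fold lower. Tfe3 (chromosome X, 7762560 to 7775202) had 104, 102, 99.0, 108 and 96.8 CPM in PRDM3/16KO, and 114, 125 and 133 CPM as the lowest, median and highest Control values. The ranges lay next to each other without overlap, with a log2 fold change of -0.29 (SE 0.061, adjusted p = 0.00132 by edgeR). Tfeb (chromosome 17, 47737030 to 47792419) had 31.8, 26.8, 32.7, 30.5 and 27.4 CPM in PRDM3/16KO, and 29.3, 32.2 and 36.2 CPM as the lowest, median and highest in Control. Its ranges overlapped, and its log2 fold change was -0.11 (SE 0.080, adjusted p = 0.302 by edgeR). Scaled to transcript length, Tfe3 was the most abundant of the 3, at 31.2 CPM per kilobase in PRDM3/16KO and 38.0 CPM per kilobase in Control. Mitf stood at 1.68 CPM per kilobase in PRDM3/16KO and 9.42 CPM per kilobase in Control, and Tfeb at 13.0 CPM per kilobase in PRDM3/16KO and 14.0 CPM per kilobase in Control.

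The core of the CLEAR element, TCACGTGA, was looked for in the 250 bases before each RefSeq gene start (GRCm38.p6). It reads the same on both strands and contains the E-box CACGTG. Windows matched 37 of the 45 genes; for the other 8, among them Npc1, Ctsb and Atp6v1b2, no window was used here. TCACGTGA was in the window of 5 of the 37, 13.5%, against 1.67% of the 10558 tested genes with a window. CACGTG, with any bases beside it, was in 8 of the 37, 21.6%, against 9.62%. These 8 include the 5 with TCACGTGA. A longer CLEAR-type motif, TCACGTGA with G added at its start and C at its end, was in none of the 37. It was in 0.568% of the tested genes, so rare that its absence from 37 windows says little. The higher shares thus concern the shorter motifs only. They describe the promoters of a list chosen as lysosome genes, and not an effect of the knockout. The motifs were chosen with the values known. The 5 genes with TCACGTGA moved differently: Ctsa and Ctsd rose, Gla and Atp6v1a fell, and Mcoln1 was not called. A match here is a run of letters, not evidence of binding. By the GENCODE coordinates used for gene positions, the matches of Ctsa, Ctsd, Mcoln1 and Atp6v1a lie inside the gene, because RefSeq places these starts farther downstream. The matches are shown with up to 20 bases on each side, 5′ to 3′ on the gene's strand, with the motif in capitals, because they are the stretches that these oppositely moving genes share.
Ctsa, chr2:164833740-164833772, plus strand: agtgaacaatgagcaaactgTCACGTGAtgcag
Ctsd, chr7:142387899-142387946, minus strand: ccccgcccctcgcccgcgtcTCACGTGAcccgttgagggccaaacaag
Mcoln1, chr8:3500453-3500500, plus strand: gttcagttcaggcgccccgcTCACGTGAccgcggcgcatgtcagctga
Gla, the farther of its matches, chrX:134601206-134601253, minus strand: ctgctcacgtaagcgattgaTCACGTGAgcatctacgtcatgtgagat
Gla, the nearer of its matches, chrX:134601173-134601220, minus strand: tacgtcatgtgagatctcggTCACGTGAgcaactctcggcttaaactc
Atp6v1a, chr16:44139364-44139411, minus strand: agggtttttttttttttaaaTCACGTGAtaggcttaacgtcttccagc
Lamp1 had no TCACGTGA but carried CACGTG 4 times in the last 81 bases before its start, chr8:13159080-13159160, plus strand, E-boxes in capitals: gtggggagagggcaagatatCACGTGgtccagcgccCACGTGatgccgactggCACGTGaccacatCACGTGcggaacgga

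Membrane protein genes fell by very different amounts. Of 10, 6 fell, none rose, 3 did not pass (Laptm4a, Laptm4b and Mcoln1) and Mcoln3 was not tested. The shares over all genes tested were 21.8% lower and 21.1% higher. Dram1, a p53-induced membrane protein that takes part in autophagy, was the most abundant lysosome gene per length in Control libraries. It lies on chromosome 10 from 88322804 to 88379080, minus strand. Its level was 406, 383, 497, 507 and 425 CPM in PRDM3/16KO, against 1199.9, 1452 and 1706 CPM as the lowest, median and highest in Control. The highest knockout library had less than the lowest Control library by a wide margin, and the log2 fold change was -1.72 (SE 0.11, adjusted p = 5.49e-09 by edgeR). Per kilobase of transcript it stood at 158 CPM in PRDM3/16KO, the fourth of the 45 genes, and at 521 CPM in Control, the first.

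Npc1, which exports cholesterol from the lysosome, and Scarb2, the LIMP-2 receptor that brings glucocerebrosidase to it, also separated completely. Npc1 (chromosome 18, 12189692 to 12236400) had 56.8, 68.8, 73.4, 65.1 and 68.1 CPM in PRDM3/16KO, and 163, 221 and 252 CPM as the lowest, median and highest in Control. Scarb2 (chromosome 5, 92441314 to 92506833) had 46.9, 40.6, 49.4, 50.2 and 47.0 CPM in PRDM3/16KO, and 97.8, 136 and 155 CPM as the lowest, median and highest in Control. Their log2 fold changes were -1.70 (SE 0.11, adjusted p = 1.06e-08 by edgeR) and -1.50 (SE 0.10, adjusted p = 2.55e-08 by edgeR). For the tetraspanin Cd63 (chromosome 10, 128900989 to 128912822) the values were 15.8, 14.5, 13.6, 15.7 and 15.7 CPM in PRDM3/16KO, and 18.03, 22.4 and 28.8 CPM as the lowest, median and highest in Control, a narrower gap (log2 fold change -0.60, SE 0.12, adjusted p = 0.000791 by edgeR).

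The 2 major membrane glycoproteins changed far less. Lamp1 (chromosome 8, 13159161 to 13175338) had 282, 304, 311, 299 and 283 CPM in PRDM3/16KO, and 302, 402 and 517 CPM as the lowest, median and highest in Control. Lamp2 (chromosome X, 38401357 to 38456454) had 318, 321, 353, 333 and 312 CPM in PRDM3/16KO, and 313, 395 and 468 CPM as the lowest, median and highest in Control. Both overlapped because Control 6 fell inside the knockout range. The log2 fold changes were -0.44 (SE 0.11, adjusted p = 0.00345 by edgeR) for Lamp1 and -0.28 (SE 0.091, adjusted p = 0.0228 by edgeR) for Lamp2. The Lamp2 call was lost without Control 2 or without any one of knockout libraries 1, 2 and 5, with adjusted p of 0.0522 to 0.0563 by edgeR. Mcoln1, a calcium channel, averaged 14.8 ± 0.598 CPM in PRDM3/16KO and 14.8 ± 0.649 CPM in Control libraries (SD, n = 5 and 6). The small membrane proteins Laptm4a and Laptm4b had log2 fold changes of -0.07 and -0.13, and Laptm4b was spread from 39.1 to 103 CPM over the Control libraries.

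Of the 10 protease genes, 3 fell, 2 rose, 3 did not pass and 2 were not tested, beside 21.8% lower and 21.1% higher among all genes tested; the share that rose is near that of all genes. The cysteine protease gene Ctsb (chromosome 14, 63122462 to 63145923) separated the groups, with 211, 269.7, 237, 218 and 221 CPM in PRDM3/16KO, against 381, 499 and 625 CPM as the lowest, median and highest in Control. Its log2 fold change was -1.08 (SE 0.11, adjusted p = 1.7e-06 by edgeR). The dipeptidyl peptidase gene Ctsc (-0.45; adjusted p = 0.00098 by edgeR) and the tripeptidyl peptidase gene Tpp1 (-0.31; adjusted p = 0.00163 by edgeR) fell less. Ctsa (chromosome 2, 164832873 to 164841032), a carboxypeptidase that also protects other hydrolases, was higher, at 65.0, 54.3, 64.7, 61.2 and 57.6 CPM in PRDM3/16KO, against 40.1, 42.4 and 45.1 CPM as the lowest, median and highest in Control. Each knockout library exceeded the highest Control library, and the log2 fold change was 0.51 (SE 0.066, adjusted p = 1.51e-05 by edgeR). The aspartic protease gene Ctsd averaged 355 ± 44.96 CPM in PRDM3/16KO and 255 ± 32.0 CPM in Control libraries (SD, n = 5 and 6), or 0.48 as a log2 fold change (edgeR, adjusted p = 0.00093). Its ranges overlapped, from 310.0 to 422 CPM in PRDM3/16KO and from 227 to 314 CPM in Control.

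Ctsz (-0.14), Ctsl (0.10) and Ctss (0.46) were not called (edgeR, adjusted p = 0.16, 0.436 and 0.508). Ctss, a cysteine protease of antigen-presenting cells, stood at 10.6 CPM in knockout library 2 and at 1.73 to 3.84 CPM in the other knockout libraries. The same library had the highest summed macrophage markers, 563 CPM, and the highest Ctsd, 422 CPM. Without it the Ctss log2 fold change was -0.17, while Ctsd stayed called higher at 0.43 (edgeR, adjusted p = 0.00152). Ctse and Ctsk were barely detected, with 44 and 33 counts over the knockout libraries and 32 and 56 over the Control libraries.

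Among the glycosidases, lipid hydrolases and cofactors, 6 of 12 fell, 2 rose and 4 did not pass. Among all genes tested, 21.8% were lower and 21.1% higher, so the share that rose is near that of all genes. Lipa (chromosome 19, 34492318 to 34527474), lysosomal acid lipase, had 33.7, 34.3, 42.3, 36.2 and 32.9 CPM in PRDM3/16KO, and 34.9, 65.7 and 85.1 CPM as the lowest, median and highest in Control. Control 6, at the low end, lay inside the knockout range, and the log2 fold change was -0.76 (SE 0.20, adjusted p = 0.00681 by edgeR). Gla (chromosome X, 134588149 to 134601125), alpha-galactosidase A, had 15.1, 20.6, 17.8, 16.3 and 15.2 CPM in PRDM3/16KO, and 20.1, 27.9 and 37.8 CPM as the lowest, median and highest in Control; only knockout library 2 reached the Control range (log2 fold change -0.70, SE 0.15, adjusted p = 0.00153 by edgeR). Smpd1 (chromosome 7, 105554360 to 105558389), acid sphingomyelinase, had 99.2, 109, 119, 109 and 101 CPM in PRDM3/16KO, and 139, 149 and 169 CPM as the lowest, median and highest in Control. Its groups were apart, with a log2 fold change of -0.51 (SE 0.071, adjusted p = 3.21e-05 by edgeR).

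The sialidase gene Neu1 (-0.48; adjusted p = 5.5e-05 by edgeR), the acid ceramidase gene Asah1 (-0.33; adjusted p = 0.00185 by edgeR) and the glucuronidase gene Gusb (-0.28; adjusted p = 0.0482 by edgeR) fell as well. The Gusb call was the least stable, being lost under 15 of 20 alternatives and without 9 of the 11 libraries in turn (edgeR, adjusted p = 0.0680 to 0.130). Psap, the precursor of the saposins that help enzymes reach their lipids, rose: it averaged 309 ± 15.6 CPM in PRDM3/16KO and 232 ± 22.6 CPM in Control libraries (SD, n = 5 and 6), without overlap (log2 fold change 0.42; adjusted p = 0.000238 by edgeR). Pla2g15, lysosomal phospholipase A2, averaged 23.9 ± 3.06 CPM in PRDM3/16KO and 17.8 ± 2.14 CPM in Control libraries (log2 fold change 0.42; adjusted p = 0.00497 by edgeR), also without overlap. Hexa, Glb1, Ppt1 and the progranulin gene Grn had log2 fold changes of -0.13, -0.0020, 0.12 and 0.04 and were not called.

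**Figure D3:**
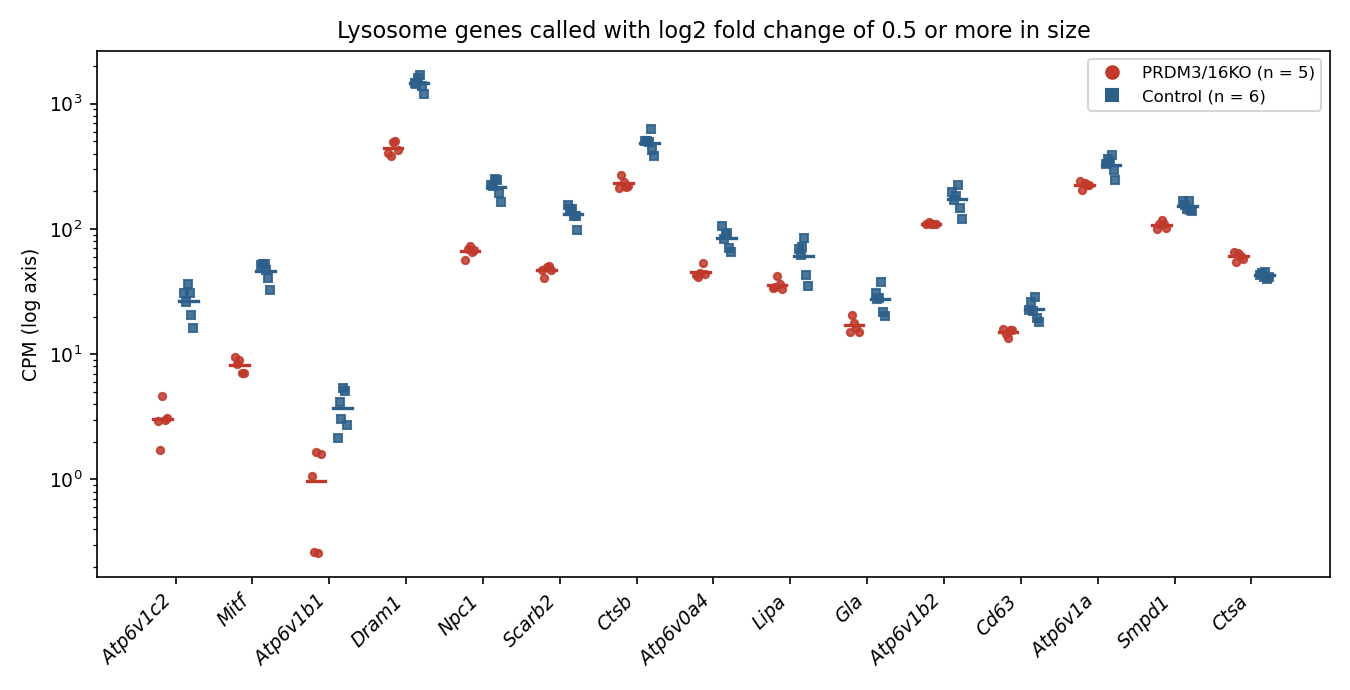
CPM on a log axis in each library for the 15 lysosome genes called with a log2 fold change of 0.5 or more in size, ordered from the most negative; red circles, PRDM3/16KO (n = 5), to the left of blue squares, Control (n = 6), with a line at each mean. The groups are apart for all but Lipa and Gla, and Ctsa is the single gene with the knockout above Control.

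The proton pump has a membrane sector, V0, that carries protons and an outer sector, V1, that hydrolyses ATP, and several subunits exist as a general form and a form restricted to certain epithelia. Of the 10 pump genes, 6 fell, none rose, 3 did not pass and Atp6v0d2 was not tested. For all genes tested the shares were 21.8% lower and 21.1% higher. Atp6v1c2, the C2 form of a V1 subunit, known from lung and kidney, fell most of the 41 tested lysosome genes. It lies on chromosome 12 from 17284721 to 17329359. It had 2.92, 1.71, 4.61, 2.96 and 3.08 CPM in PRDM3/16KO, and 16.2, 28.4 and 36.1 CPM as the lowest, median and highest in Control. The groups were far apart, with a log2 fold change of -3.12 (SE 0.25, adjusted p = 1.98e-07 by edgeR), an 8.66-fold lower level.

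The V0 subunit a is encoded by Atp6v0a1, the general form, and Atp6v0a4, a form of acid-secreting epithelia. Atp6v0a4 (chromosome 6, 38048483 to 38124586) had 42.6, 41.6, 44.4, 53.8 and 43.3 CPM in PRDM3/16KO, and 65.0, 86.6 and 107 CPM as the lowest, median and highest in Control. It was lower in each knockout library (log2 fold change -0.90, SE 0.12, adjusted p = 2.3e-05 by edgeR). Atp6v0a1 (chromosome 11, 101009452 to 101063719) had 157, 143, 149, 159 and 135 CPM in PRDM3/16KO, and 101, 140.5 and 176 CPM as the lowest, median and highest in Control, with the knockout inside the Control range (log2 fold change 0.08, SE 0.13, adjusted p = 0.62499 by edgeR).

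For subunit B of V1, Atp6v1b2 is the general form and Atp6v1b1 the form of acid-secreting epithelia. Atp6v1b2 (chromosome 8, 69088646 to 69113711) had 110.2, 113, 109, 110.3 and 109.7 CPM in PRDM3/16KO, and 121, 178 and 224 CPM as the lowest, median and highest in Control. The knockout values were tightly packed below the Control range (log2 fold change -0.66, SE 0.12, adjusted p = 0.000603 by edgeR). Atp6v1b1 (chromosome 6, 83742990 to 83758855) was rare, at 1.06, 0.263, 1.66, 0.257 and 1.604 CPM in PRDM3/16KO, and 2.13, 3.59 and 5.37 CPM as the lowest, median and highest in Control. It had 38 counts over the knockout and 151 over the Control libraries, and passed the filter through its Control counts (log2 fold change -1.92, SE 0.40, adjusted p = 0.00124 by edgeR).

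Subunit d of V0 is encoded by Atp6v0d1, the general form, and Atp6v0d2, known from osteoclasts and kidney. Atp6v0d1 (chromosome 8, 105524465 to 105566047) had 60.7, 59.6, 65.4, 65.6 and 56.6 CPM in PRDM3/16KO, and 68.9, 89.2 and 112 CPM as the lowest, median and highest in Control (log2 fold change -0.50, SE 0.11, adjusted p = 0.00133 by edgeR). Atp6v0d2 (chromosome 4, 19876841 to 19922605) had 0.398, 0.657, 0.512, 0.515 and 0.123 CPM in PRDM3/16KO, and 0.864, 1.51 and 2.63 CPM as the lowest, median and highest in Control. Both were lower in each knockout library than in any Control library. Atp6v0d2 had 17 counts in all in the knockout and 63 in Control, under the filter; tested without it, its log2 fold change was -1.79 (edgeR, adjusted p = 0.00159).

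The isoform pairs did not share a direction. The log2 ratio of Atp6v0a4 to Atp6v0a1 was -1.72 ± 0.12 in PRDM3/16KO and -0.73 ± 0.087 in Control libraries (SD, n = 5 and 6). The ratio of Atp6v0d2 to Atp6v0d1 was -7.32 ± 0.89 in PRDM3/16KO and -5.89 ± 0.57 in Control libraries, and that of Atp6v1b1 to Atp6v1b2 was -7.26 ± 1.38 in PRDM3/16KO and -5.59 ± 0.58 in Control libraries. In these pairs the restricted form had the lower ratio in the knockout. They were compared after the values had been seen and are given as a description with no test, and those with Atp6v0d2 and Atp6v1b1 rest on few counts. For the C subunit, Atp6v1c2 fell far more (-3.12) than Atp6v1c1 (-0.36), so this pair went the same way, though its ratio was not computed. Atp6v1c1 is one of the other pump genes and was called lower (edgeR, adjusted p = 0.035), with overlapping ranges. The pairs of the G and e subunits went the opposite way. Atp6v1g2, the G2 form, rose (0.31) where Atp6v1g1 fell (-0.64), and Atp6v0e2 rose (3.25) where Atp6v0e was not called (-0.0039). Markers of ionocytes, airway cells rich in the proton pump, were near 0 throughout: their 6 genes summed to 0.398 to 1.73 CPM in PRDM3/16KO and 0.520 to 1.23 CPM in Control, and Foxi1 and Stap1 were at 0 in each Control library.

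Among the other pump members, the catalytic subunit gene Atp6v1a (chromosome 16, 44085402 to 44139705) had 240.03, 203, 233, 225 and 223 CPM in PRDM3/16KO, and 245, 338 and 388 CPM as the lowest, median and highest in Control. The knockout values were all lower (log2 fold change -0.54, SE 0.10, adjusted p = 0.000453 by edgeR). Atp6v1h (-0.24) and the accessory subunit gene Atp6ap1 (-0.17) were not called (edgeR, adjusted p = 0.152 and 0.0525), and Atp6ap1 was called under 5 of 20 alternatives.

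**Figure D4:**
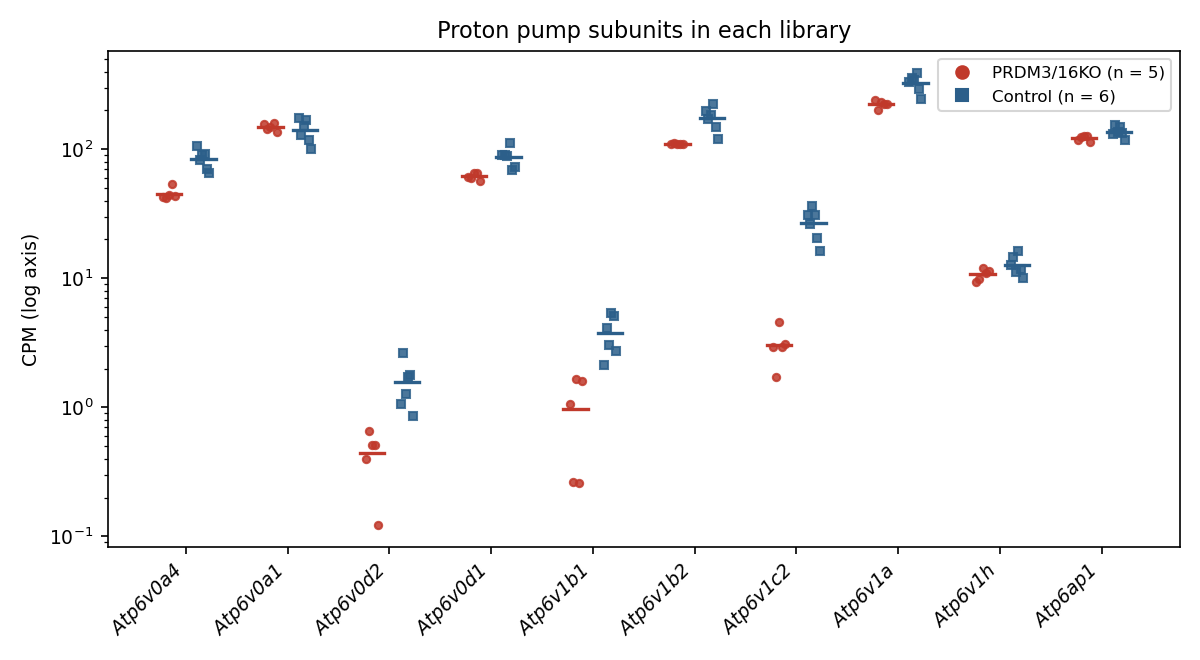
CPM on a log axis for 10 proton pump genes in each library, the restricted form of each pair placed to the left of its general form; red circles, PRDM3/16KO (n = 5), to the left of blue squares, Control (n = 6), with a line at each mean. Atp6v0a4, Atp6v0d2, Atp6v1b1 and Atp6v1c2 lie lower in each knockout library than in any Control library, and so do Atp6v0d1, Atp6v1b2 and Atp6v1a. The widest gap is that of Atp6v1c2 (4.61 CPM at most in PRDM3/16KO, 16.2 CPM at least in Control). Atp6v0a1, Atp6v1h and Atp6ap1 overlap.

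The calls of Mitf, Dram1, Npc1, Scarb2, Ctsa, Ctsb, Atp6v0a4, Atp6v1b2 and Atp6v1c2 held under each of 20 alternatives. The low-count gene Atp6v1b1 kept its call too. It had passed the filter through its Control libraries, so its kept call is not read as stability. The other 17 called genes lost the call under at least 1, and 15 of them under no other than the division of libraries by Y-linked transcripts, which were high in 4 Control libraries and 1 knockout library. The Y-linked level was thus partly confounded with genotype. The low set had 4 knockout and 2 Control libraries and gave 14 lysosome genes lower and 3 higher. Its Control libraries were Control 2 and Control 6, and Control 6 had the lowest Control level for 30 of the 45 genes. The high set gave 9 lower and 1 higher, but its single knockout library was only assumed to vary like the others, so its calls say little about stability. Several lost calls kept a fold change of similar size. In the high set Cd63 had a log2 fold change of -0.57, Smpd1 of -0.53, Atp6v1a of -0.60 and Gla of -0.86, while Tfe3 was at -0.16. Lipa was at -0.44 in the low set and -0.90 in the high set. Among genes that kept the call, the low and then the high set gave -2.34 and -2.76 for Mitf, -1.63 and -1.61 for Dram1, -1.52 and -1.82 for Npc1 and -2.77 and -3.32 for Atp6v1c2.

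Exons of 14 of the 45 genes overlap those of another gene, and the strand setting of the counting is not given in the sources used here. Atp6v0a4 shares bases with Tmem213 and D630045J12Rik, which fell too (-1.37 and -0.96). Ctsd shares bases with Gm49369, a gene on its own strand. Same-strand overlaps were also found for Glb1, with Tmppe, and for Ctsl, with Gm49230. Counting Gm47123 on the opposite strand, the overlaps of Ctsl summed to 2137 bases. Ctsb shares some with Fdft1 (-0.71), and Ctsa with Neurl2 (0.59) and Pltp (0.16, not called). How these overlaps bear on the counts was not tested.

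Other genes of the pathway, outside the 45, are read against the 21.8% of all genes tested that were lower and the 21.1% that were higher. For the other pump genes, 3 of 15 fell and 2 rose, with a median log2 fold change of -0.04 among the 12 tested, a share near that of all genes. Atp6v0e2, a form of the small V0 subunit e, rose to 75.3 ± 5.91 CPM in PRDM3/16KO, against 7.95 ± 3.05 CPM in Control libraries (log2 fold change 3.25; adjusted p = 2.57e-09 by edgeR), while Atp6v1g1 fell (-0.64). Of 34 other hydrolases 14 fell and 5 rose (median -0.15): the proteases Ctsh (-1.76) and Napsa (-2.39), which process surfactant protein, and the galactocerebrosidase Galc (-1.30) fell, and Ctsf (1.29), Arsa (0.54) and Manba (0.47) rose. Among 24 other membrane and cholesterol-carrying proteins 6 fell and 7 rose (median -0.06 among the 23 tested), with no lean to lower values. Lamp3 (-2.79) and Npc2 (-1.08), both abundant in type 2 cells, fell with Dram2 (-1.0017), and the channel Tpcn1 (0.50), the transporter Slc36a1 (0.40) and the potassium channel Tmem175 (0.45) rose.

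In enzyme sorting and organelle assembly, 11 of 31 fell and 3 rose (median -0.12). The sorting receptor Sort1 (-1.02), Gnptab (-0.95), which makes the mannose-6-phosphate tag, and Rab27a (-0.81) fell, and Rab38 (0.59), a GTPase of lysosome-related organelles, rose. A mixed list of 19 genes of mTORC1 signalling and MiT/TFE regulation, which holds Mtor, the Rag GTPases, the LAMTOR and folliculin genes, GATOR1 genes, Tfec and Zkscan3, had 6 lower and none higher (median -0.12 among the 18 tested, beside 21.8% lower among all genes). Rragd, the RagD GTPase, had 13.4 ± 1.44 CPM in PRDM3/16KO and 78.2 ± 11.01 CPM in Control libraries (SD, n = 5 and 6). Its log2 fold change was -2.55 (adjusted p = 1.75e-10 by edgeR). The RagC gene Rragc (-0.54) and Flcn (-0.79) fell as well, while Rraga (-0.12) and Rragb (0.29) were not called. Autophagy genes fell in 12 of 24 cases and rose in none (median -0.21 among the 23 tested), among them Optn (-1.0014), Ulk1 (-0.51) and Atg13 (-0.73).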

How the data were processed

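Poly(A)-enriched RNA of EpCAM-selected cells was sequenced, and the authors deposited 1 table of raw counts per gene symbol. The submitters' processing notes name Trim Galore 0.4.2, Bowtie2 2.4.2, Picard 2.18.22, HTSeq 2.0 and the build mm10, without their roles; the sources used here do not give annotation, strand setting or duplicate handling. Bowtie2 does not split reads across introns, and no splice-aware aligner is named, so levels of different genes are compared with caution. Genes were filtered with filterByExpr, scaled by TMM and tested with edgeR 4.0.16 (quasi-likelihood F-test, two-sided, Benjamini-Hochberg over 13916 genes, threshold 0.05) in R 4.3.3; the step was tested on simulated data. CPM uses TMM-scaled totals. Log2 fold changes are knockout over Control. Coordinates and transcript lengths (the longest APPRIS principal coding transcript) are from GENCODE release M21 on mm10, and promoter windows from RefSeq on GRCm38.p6. Alternatives were other scalings, no filter, DESeq2 1.42.0, limma-voom 3.58.1, a replicate block, left-out libraries and sets split by Y-linked transcripts at a mean log2 CPM of 3. The members and lists were chosen with earlier results of these data known. Each knockout value and the lowest, median and highest Control value are given for the MiT/TFE genes, Lamp1, Lamp2, the isoform pairs and members called at a log2 fold change of 0.5 or more in size; from other lists up to 3 called genes in each direction, by adjusted p, may be named.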

Additional observations from a re-analysis of the deposited data

Results flagged for a closer look

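A library stood apart from the others of its group for 3 of the lysosome genes, by the size of its gap relative to the group's range; 82 groups of libraries were looked at, and chance marks about 1 in 20. Ctss was at 10.6 CPM in PRDM3/16KO library 2, against 1.73 to 3.84 CPM in the other knockout libraries. Atp6v0a4 was at 53.8 CPM in PRDM3/16KO library 4, against 41.6 to 44.4 CPM in the others. Atp6v1b2 was at 113 CPM in PRDM3/16KO library 2, against 109 to 110.3 CPM in the others, a gap that is large only because the rest lay so close together.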

How the results depend on the processing

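Counts of called lysosome genes stayed within 1.5 times of 23 lower and 4 higher under other scalings, filters and tests, and with single libraries left out (21 to 23 lower, 4 higher). They moved when libraries were divided by Y-linked transcripts: 14 lower among the low libraries, and 9 lower and 1 higher among the high libraries. All genes then gave 1932 higher and 1821 lower (low), and 869 higher and 933 lower (high), with fewer libraries in each fit. Scaling by library size only shifted the median of all genes to 0.11 and that of the lysosome genes to -0.18, with 21 lower and 5 higher; over all genes it gave 3992 higher and 2095 lower. With a replicate block, 23 were lower and 4 higher, and Gusb lost its call (adjusted p = 0.103 by edgeR); Atp6ap1 gained one (-0.21, adjusted p = 0.0135), and no other lysosome gene changed its call. The labels do not say whether same-numbered libraries were paired. The correlations of their deviations ran from -0.0592 to 0.271, and 1 of 5 knockout libraries was closest to its own number. So few pairs cannot decide whether they shared more than a number. Of the genes not called, 5 were called under at least 1 alternative: Laptm4b, Ctsz, Atp6v1h, Ppt1 and Atp6ap1. No called gene changed sign. Signs changed for 9 genes that were not called: with library size only, Tfeb (0.00034), Laptm4a (0.039) and Glb1 (0.10); without a filter, Glb1 (0.0070); with the block, Mcoln1 (-0.013) and Glb1 (0.0038); without Control 5 and 6, Mcoln1 (-0.012), Ctsl (-0.028), Glb1 (0.013) and Atp6v0a1 (-0.074); among the low libraries, Hexa (0.0016) and Glb1 (0.10); among the high, Ctss (-0.39). With single libraries left out, Mcoln1 ran from -0.012 to 0.027, Laptm4b from -0.26 to 0.0078, Ctss from -0.17 to 0.69 and Glb1 from -0.071 to 0.076. The cause of these changes was not tested. With each library left out, or Control 5 and 6 together, the difference in log2 isoform ratio was -1.04 to -0.96 for Atp6v0a4 over Atp6v0a1, -1.64 to -1.05 for Atp6v0d2 over Atp6v0d1 and -1.98 to -1.30 for Atp6v1b1 over Atp6v1b2; these alternatives were chosen after seeing the data, and the ratios were not computed in the Y-linked sets or with the block. Genes with few counts, such as Atp6v0d2 and Mcoln3, are limited by depth.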
